A study of Mus musculus with 3 samples.

Results

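The galectins are a family of sugar-binding proteins, and 5 of their genes, Lgals1, Lgals3, Lgals7, Lgals8 and Lgals9, were followed through mesenchymal cells of the mouse sciatic nerve. The members were found by symbol among 53380 features, of which 13 carry a galectin-type symbol. Lgals7 was chosen by its measured rise in CPM at day 21, so its differences between libraries are given as a description and nothing is read from them as a test. The other 4 members were also listed with earlier results of these data in view.

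The cells came from mice carrying Pdgfrb-cre/ERT2, a Cre recombinase that tamoxifen activates in cells using the Pdgfrb promoter, and the R26-TomatoLSL reporter, which turns red once Cre has acted. TdTomato-positive cells were sorted from pooled nerves and sequenced as single cells in 3 libraries: intact sciatic nerve, the bridge that closes the injury gap at day 7, and the bridge at day 21. All 3 carry both alleles, and the sort was for cells in which Cre had acted, although barcodes without a class also held Schwann-like, myeloid-like and endothelial-like cells. Age, sex and the number of pooled nerves were not stated. Myelin was removed with beads from the intact sample alone, and that step cannot be told apart from the group. With 1 library per group no difference has a replicate check, cells are not replicates, and every interval below is a 95% interval that covers counting error only.

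Galectins bind beta-galactoside sugars, above all N-acetyllactosamine chains on membrane and matrix glycoproteins, and they leave the cell by a route that needs no signal peptide. Galectin-1 and galectin-7 have a single sugar-binding domain and pair up, galectin-3 joins 1 such domain to a flexible tail, and galectin-8 and galectin-9 carry a pair of different domains on a single chain. In nerve, galectin-1 is known from axons, Schwann cells and fibroblasts and promotes axon regrowth, and galectin-3 is known from macrophages and Schwann cells that clear myelin after injury. Galectin-7 is best known from skin and other stratified epithelia, galectin-8 from the sensing of damaged endosomes, and galectin-9 from immune regulation through the receptor Tim-3.

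The authors' metadata put each cell in 1 of 6 classes. Annotated cells numbered 1343 in intact nerve, 1780 at day 7 and 4111 at day 21, with medians of 5667, 19316 and 7442 UMIs (single counted RNA molecules) per cell in that order. The class names were set beside the nerve's layers with markers chosen with earlier results of these data in view, as a description. Marker levels were means over the libraries where a class held at least 50 cells. 8 of 8 perineurial markers were highest in MES_PERI, 8 of 8 endoneurial markers in MES_ENDO and 10 of 10 epineurial markers in MES_EPI. These classes are called perineurial (the cell sleeve that seals each nerve bundle), endoneurial (fibroblasts among the axons) and epineurial (the outer connective tissue), MES_DIV, where 6 dividing markers summed to 2641 counts per 1e+06 UMIs (CPM) at day 21 and 2369 at day 7, is called dividing, and MES_DIFF and MES_EPI-diff keep their label. Perineurial cells numbered 116, 241 and 2069 in intact, day 7 and day 21, endoneurial cells 663, 255 and 487, and epineurial cells 540, 676 and 1027. MES_DIFF and dividing cells are described at day 21 (387 and 119 cells) and at day 7 (308 and 206), and MES_EPI-diff at day 7 alone (94), since the other groups held under 50 cells. Pairs of libraries shared 41 to 58 barcodes, of which 1 or 2 were annotated in both.

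Levels are given as CPM, scaled to the UMIs of the same cells. Over all annotated cells Lgals1 was the most abundant of the 5, at 1691 CPM in intact nerve, 3791 at day 7 and 2216 at day 21. Lgals9 stood at 57.3, 70.1 and 50.6 CPM, Lgals8 at 44.4, 37.5 and 40.7, and Lgals3 at 33.3, 36.2 and 19.7 in the same order. Lgals7 had 1.08 CPM in intact nerve from 9 UMIs, 22.8 at day 7 from 824 and 244 at day 21 from 8235. It was the least abundant of the 5 in intact nerve and stood next after Lgals1 at day 21. These levels are not per length, so the order of genes holds on the CPM scale only.

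Lgals7 (ENSMUSG00000053522.11) lies on chromosome 7 of GRCm38 at 28863853 to 28866284, on the plus strand, in a galectin neighbourhood with Lgals4 at 28833854 to 28841708. An antisense gene, Gm10648, spans it on the minus strand from 28859587 to 28876331 and had 2, 6 and 13 UMIs in intact, day 7 and day 21 annotated cells. Whether the counting used strand is not given in the sources used here, so reads from the overlap cannot be told apart. Lgals1 lies on chromosome 15 (78926725 to 78930465), Lgals3 on chromosome 14 (47367751 to 47386160), Lgals8 on chromosome 13 (12439415 to 12464944) and Lgals9 on chromosome 11 (78962974 to 78984946). Of the other galectin-type symbols, Lgalsl, a galectin-like protein, had 504, 1094 and 995 UMIs in intact, day 7 and day 21 cells, which is 60.2, 30.2 and 29.5 CPM. Lgals3bp, a secreted glycoprotein that galectin-3 binds, had 49.1, 82.7 and 51.7 CPM. Lgals4 had 43, 73 and 159 UMIs, Lgals2 had 0, 4 and 1, Grifin had 0, 7 and 5, and Lgals12 and the pseudogenes Lgals1-ps1 and Lgals1-ps2 had 0 in each library, which allows up to 0.358, 0.0829 and 0.0891 CPM in intact, day 7 and day 21 cells.

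At day 21 Lgals7 was high in perineurial and MES_DIFF cells. In perineurial cells it had 4.14 CPM in intact nerve (0.853 to 12.1, from 3 UMIs), 39.2 at day 7 (33.1 to 46.1, from 147) and 444 at day 21 (433 to 456, from 5945). The day 21 level was 11.3-fold the day 7 level (9.63 to 13.5) and 107-fold the intact level (36.8 to 521). A UMI of Lgals7 was found in 2.59% of perineurial cells in intact nerve, in 26.1% at day 7 and in 48.6% at day 21. With every cell thinned to 2000 UMIs these shares were 0.862%, 3.32% and 30.8%, so the gap between day 21 and day 7 is wider at equal depth than it looks in the full data. Median depth per perineurial cell was 5291 UMIs in intact nerve, 15443 at day 7 and 5829 at day 21.

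**Figure D1:**
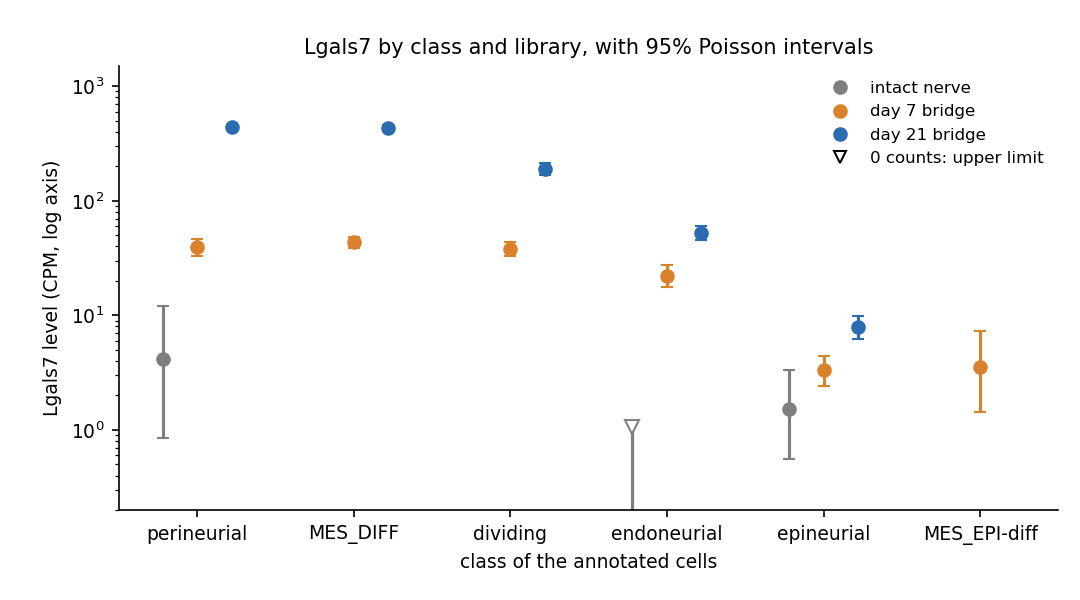
Level of Lgals7 in CPM (log axis) by class and library, with 95% Poisson intervals for counting error. Perineurial and MES_DIFF cells of the day 21 library stand at 444 and 434 CPM, above every other class, and epineurial cells stay under 10 CPM in all 3 libraries.

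The other classes stood below or beside it. At day 21 MES_DIFF cells had 434 CPM of Lgals7 (413 to 455), a level whose interval overlaps that of perineurial cells, with a ratio of 0.976 (0.924 to 1.03). With each cell weighted alike MES_DIFF cells had 444 CPM and perineurial cells 437. Dividing cells had 191 CPM, endoneurial cells 52.4 and epineurial cells 7.86, and the intervals of neighbours in that order did not overlap. The perineurial level was 8.48-fold the endoneurial level (7.43 to 9.73) and 56.5-fold the epineurial level (45.4 to 71.3). At day 7 the order was MES_DIFF at 43.2 CPM, perineurial at 39.2 and dividing at 37.9, with overlapping intervals, then endoneurial at 22.2, MES_EPI-diff at 3.57 and epineurial at 3.32. In intact nerve endoneurial cells held 0 UMIs of Lgals7, where 0 of 663 cells allows a share of cells with a UMI of up to 0.452% (3 cells), and epineurial cells held 6, or 1.52 CPM.

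Within each layer the bridge libraries were set against intact nerve. Endoneurial Lgals7 was at least 60.6-fold higher at day 21 and at least 25.7-fold higher at day 7 than in intact nerve. Both bounds were computed against 3 UMIs in the intact class. Of the 228 endoneurial UMIs at day 21, 184 lay in 47 cells taken up below. Epineurial Lgals7 was 5.17-fold the intact level at day 21 (2.28 to 14.5), but 0.76 on the log2 scale after thinning, and 2.19-fold at day 7, with an interval of 0.93 to 6.27 that includes no difference. That day 7 ratio turned to −1.17 on the log2 scale after thinning and to −0.20 in cells of same-layer clusters. The ratio of day 21 to day 7 was 10.04 in MES_DIFF cells (8.94 to 11.3), 5.04 in dividing cells (4.19 to 6.08), 2.37 in epineurial cells (1.62 to 3.49) and 2.36 in endoneurial cells (1.83 to 3.07). Over all annotated cells, the day 21 level was 227-fold the intact level (120 to 497) and 10.7-fold the day 7 level. With the 3 layers weighted alike in both libraries the log2 ratio of day 21 to intact was 6.25, against 7.75 as found. Perineurial cells made up 50.3% of the day 21 cells and 8.64% of the intact cells.

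The MES_DIFF and endoneurial values at day 21 rested on cells that cluster with perineurium. In a clustering built without any galectin gene, 2 clusters were high in 7 and 8 of the 8 perineurial markers and are called perineurial-like. They held 255 of the 387 day 21 MES_DIFF cells, and these had 658 CPM of Lgals7 (626 to 691). The other 132 MES_DIFF cells had 72.8 CPM (59.8 to 87.8), which brings the log2 ratio of day 21 to day 7 down to 0.76, against 3.33 for the whole class. Of the 487 endoneurial cells, 47 lay in the perineurial-like clusters and carried 184 of the class's 228 Lgals7 UMIs. The other 440 had 11.3 CPM (8.21 to 15.2), below the 22.2 of day 7 endoneurial cells. Among dividing cells at day 21, 9 of 119 lay in those clusters with 98 of 283 UMIs, and the other 110 had 132 CPM. That class also carried Schwann markers at a summed 1762 CPM and neutrophil and mast cell markers at 907 CPM, against 358 and 0.966 CPM in day 7 dividing cells, and their part in the result was not tested.

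Perineurial cells of the 2 clusters differed in Lgals7 at day 21. The cluster led by Slc6a13, a GABA and taurine transporter, Spink1, a trypsin inhibitor, and Ocln, the tight-junction protein occludin, held 1331 of the class's cells and 646 CPM of Lgals7 (629 to 664). The cluster led by Sfrp5, a secreted Wnt inhibitor, Lypd2 and Hcn4, a pacemaker channel, held 723 cells and 115 CPM (106 to 125). In intact nerve most perineurial cells lay in the Sfrp5 cluster, with 85 there and 21 in the Slc6a13 cluster, and these carried 2 and 1 Lgals7 UMIs. Lgals1 ran opposite to Lgals7 between the clusters at day 21, at 1753 CPM in the Slc6a13 cluster and 2258 in the Sfrp5 cluster. At day 7, 195 of 241 perineurial cells sat in a cluster left without a name, led by Wif1 and Cst6, with 45.1 CPM of Lgals7. That cluster was high in 8 of 8 endoneurial markers and also held 215 of 255 day 7 endoneurial cells, at 19.5 CPM. Day 7 contrasts of perineurial and endoneurial cells are thus largely between cells of 1 cluster. The 31 perineurial cells of day 7 that sat in the perineurial-like clusters had 2 UMIs, or 5.01 CPM. The summed level of 8 perineurial markers in the perineurial class was 5421 CPM in intact nerve, 756 at day 7 and 2882 at day 21, so by its markers the class was weakest at day 7.

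Lgals7 was spread unevenly among the 2069 perineurial cells of day 21. No UMI was found in 1064, 1 was found in 360, 2 to 9 in 470 and 10 or more in 175, and the highest cell had 154. The 207 cells with the most Lgals7 held 68.4% of its UMIs. In 3 bins of cells by depth, with medians of 4015, 5832 and 8507 UMIs per cell, the level was 461, 438 and 441 CPM, so it did not climb with depth. At day 7 only 1 of 241 perineurial cells had 10 or more UMIs, and in intact nerve 3 of 116 cells had 1 each.

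**Figure D2:**
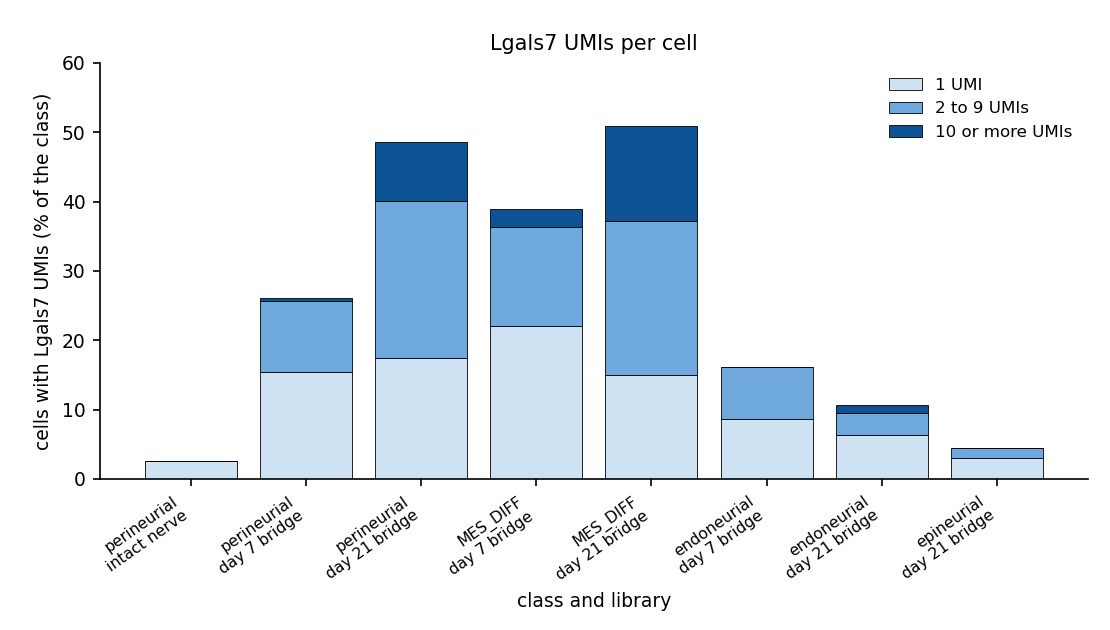
Share of cells, in percent of the class, by number of Lgals7 UMIs in the cell. Shown are perineurial cells of each library, MES_DIFF and endoneurial cells of day 7 and day 21, and epineurial cells of day 21. Perineurial cells with 10 or more UMIs number 0 of 116 in intact nerve, 1 of 241 at day 7 and 175 of 2069 at day 21.

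After thinning, 637 of the 2069 cells had a Lgals7 UMI and 1432 had none, and the 2 sets were close in most perineurial markers. Cldn1, the barrier protein claudin-1, had a UMI in 85.9% of cells with Lgals7 and in 83.8% of cells without it, and Krt19, a keratin of simple epithelia, in 43.5% and 45.1%. Ocln was found in 18.1% of cells with Lgals7 and in 10.5% without, Lypd2 in 26.7% and 40.4%, and Msln, the surface protein mesothelin, in 1.26% and 3.77%. Postn, a matrix protein of wound mesenchyme, was found in 44.4% of cells with Lgals7 and in 53.1% without.

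Free RNA can put UMIs of an abundant gene into cells that do not make it, so the cells without a class that cluster as other types serve as background. At day 21 a Lgals7 UMI was found in 8.36% of 1376 Schwann-like cells (75.2 CPM, median 5800 UMIs), 5.78% of 173 myeloid-like cells (27.3 CPM, 6308 UMIs), 3.13% of 288 pericyte-like cells (29.1 CPM, 5174 UMIs) and 2.29% of 175 endothelial-like cells (5.87 CPM, 7723 UMIs). The perineurial share of 48.6% at 5829 UMIs lies far above all of these. The epineurial share of 4.48% at 9666 UMIs lies within them. Neither that share nor the epineurial ratio to intact nerve is thus read as expression. The endoneurial share of 10.7% at 8649 UMIs lies just above, but the 52.4 CPM of that class lies below the Schwann-like level. Of the 47 endoneurial cells in the perineurial-like clusters 57.4% had a UMI. The other 440 had 11.3 CPM, below the Schwann-like, pericyte-like and myeloid-like levels. The endoneurial ratio of day 21 to intact nerve is thus not read as expression across the class. The 47 cells held 184 of its 228 UMIs, at 403 CPM, above each of the 4 background levels. Whether the Schwann-like UMIs are free RNA alone was not tested. Set against the perineurial level, Lgals7 in Schwann-like cells came to 16.9%, above 7 of the 8 perineurial markers, which reached 2.22% to 11.3% there, and below Itgb4 at 31.6%. In MES_DIFF cells it came to 97.6%, above the 3.23% to 65.4% of the same markers. At day 7 the 170 myeloid-like cells held 3 Lgals7 UMIs, and annotated cells held 824 of the 1076 in barcodes past the filters. The endoneurial level of that day and its ratio to intact nerve were not set against other types, so neither is read as expression.

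**Figure D3:**
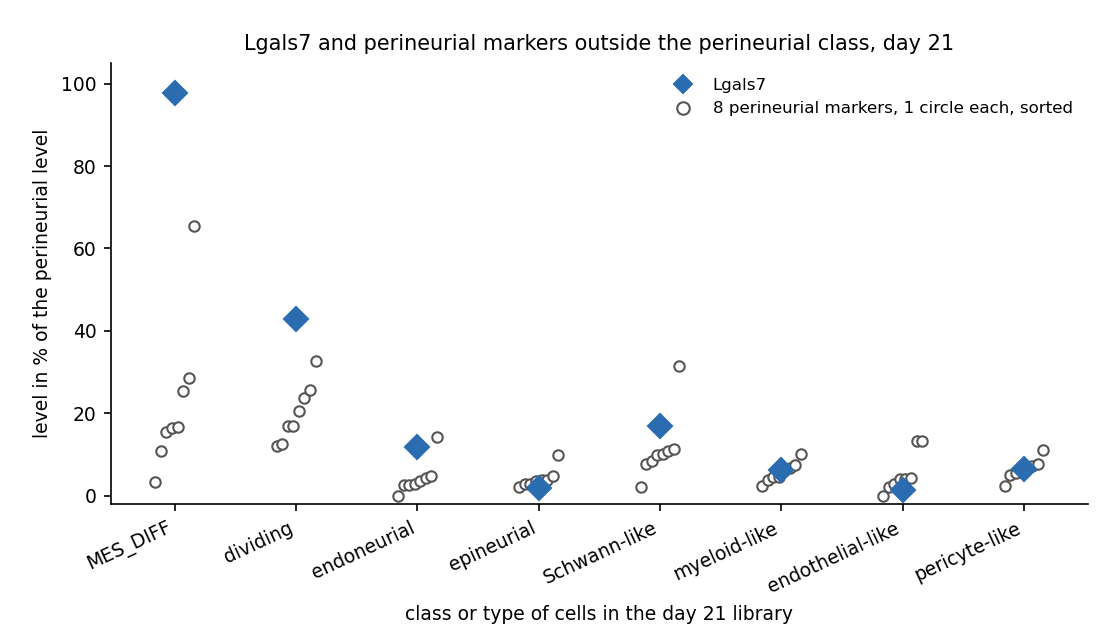
Level in other day 21 cells as a percentage of the level in day 21 perineurial cells, for Lgals7 and for the 8 perineurial markers. Lgals7 lies above 7 of the 8 markers in Schwann-like cells at 16.9% and above all of them in MES_DIFF cells at 97.6%.

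Markers of keratinocytes, the best known source of galectin-7, were near 0. Of 9 stratified epithelium markers, Krt5, Krt6a and Dsg3 had 0 UMIs in day 21 perineurial cells, and the 9 summed to 16.5 CPM in intact nerve, 17.9 at day 7 and 8.75 at day 21, beside 444 CPM of Lgals7 at day 21. Krt19, which is also a perineurial marker, was at 429 CPM in day 21 perineurial cells and 294 in intact ones, 1.46-fold (1.27 to 1.68). Of the 4 simple keratins in the list 2 passed the filter in perineurial cells, with 0 past 2-fold higher and 1 lower (Krt7, named after its value was seen). Genes that p53 activates were set beside Lgals7 because human galectin-7 is known as a p53-induced gene. Of 12 in the list, 10 passed the filter in perineurial cells, and 0 were past 2-fold higher and 2 were past 2-fold lower at day 21 than in intact nerve, beside 6.87% higher and 10.8% lower of all genes. Perp, a desmosome protein, was at 55.3 CPM at day 21 and 254 in intact nerve (0.218-fold). The other gene past 2-fold lower was under 20 CPM in both libraries and is not named, and the 3 genes that follow were within 2-fold. Cdkn1a, the cell cycle inhibitor p21, was at 55.6 and 81.4 CPM, Mdm2, which degrades p53, at 34.3 and 23.4, and Phlda3, an inhibitor of Akt, at 809 and 593. The list's median log2 ratio was 0.05, against −0.08 over all genes tested.

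Lgals1 was high in every class and highest in dividing cells. Its level in dividing cells was 4527 CPM at day 21 and 4957 at day 7. In endoneurial cells it was 1679.8 CPM in intact nerve, 3894 at day 7 and 3141 at day 21, so day 7 was 2.32-fold (2.25 to 2.39) and day 21 1.87-fold the intact level. In epineurial cells it was 1374, 2755 and 1701 CPM, 2.01-fold at day 7 (1.95 to 2.06) and 1.24-fold at day 21. In perineurial cells it was 2894, 3742 and 1950.2 CPM, 1.29-fold at day 7 and 0.674-fold at day 21 (0.645 to 0.705). At day 21 perineurial cells thus stood below the intact level, while endoneurial and epineurial cells stood above it, and that opposite direction was not tested. The classes lay in different clusters in each library: 1 endoneurial-like cluster, led by Angptl7 and A2m, held 653 of 663 intact, 10 of 255 day 7 and 78 of 487 day 21 endoneurial cells. Within it Lgals1 was at 1626 CPM in intact nerve, 1599.7 at day 7 and 1601 at day 21. Of the other endoneurial cells, 215 at day 7 lay in the unnamed cluster led by Wif1, at 3795 CPM, and 355 at day 21 in an endoneurial-like cluster led by Myoc, at 3326 CPM. Perineurial cells had 1753 CPM at day 21 and 1379 in intact nerve within the Slc6a13 cluster, and 2258 and 3404 within the Sfrp5 cluster. MES_DIFF cells had 2523 CPM at day 21 and 4713 at day 7, a ratio of 0.535.

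The layer with the most Lgals1 was not the same in the 3 libraries. In intact nerve the perineurial level was 2.11-fold the epineurial level (2.00 to 2.22) and 1.72-fold the endoneurial level (1.64 to 1.81). At day 21 the perineurial level was 0.621-fold the endoneurial level (0.608 to 0.634) and 1.15-fold the epineurial level. The epineurial ratio of day 7 to intact lies at the 2-fold line and drops to 0.94 on the log2 scale with median-of-ratios scaling. That scaling moves the all-cell ratio of day 7 to intact by 0.17, which leaves Lgals1 at 0.99 against 1.16. Among cells without a class, Schwann-like cells had 2499 CPM of Lgals1 at day 21 and 4338 at day 7, pericyte-like cells 2312 and 3688, and myeloid-like cells 590 and 1192.

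**Figure D4:**
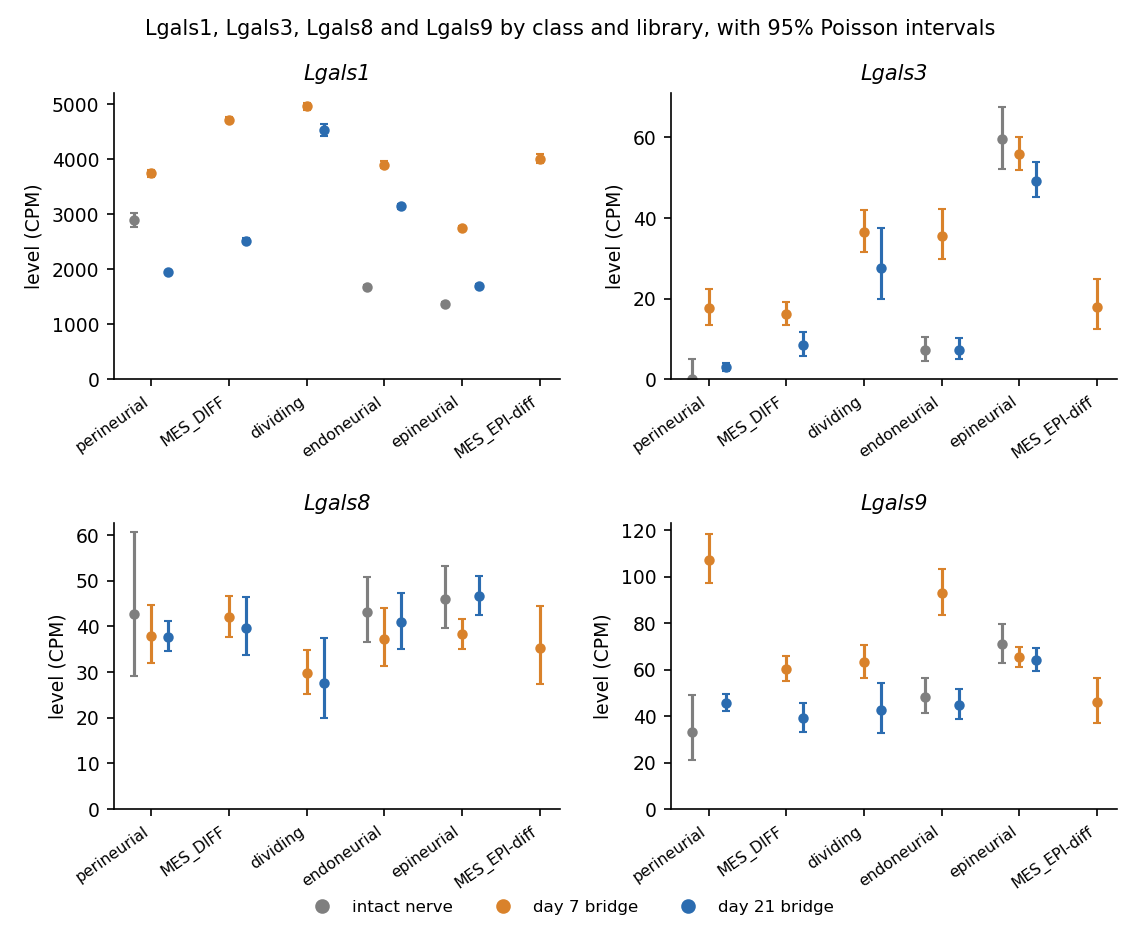
Levels of Lgals1, Lgals3, Lgals8 and Lgals9 in CPM by class and library, with 95% Poisson intervals. Lgals3 is highest in epineurial cells in each library, Lgals8 stays between 27.7 and 46.6 CPM, and Lgals9 peaks at 107 CPM in day 7 perineurial cells.

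Lgals3 was highest in epineurial cells, and in endoneurial and perineurial cells its level was past 2-fold higher at day 7 than in intact nerve. Epineurial cells had 59.5 CPM in intact nerve, 55.9 at day 7 and 49.3 at day 21, and neither bridge library was past 2-fold. Endoneurial cells had 7.2, 35.6 and 7.35 CPM, so day 7 was 4.94-fold the intact level (3.21 to 7.91) and day 21 was 1.02-fold (0.586 to 1.80). Perineurial cells held 0 UMIs in intact nerve, where 0 of 116 cells allows a share of cells with a UMI of up to 2.59% (3 cells), then 17.6 CPM at day 7 and 3.07 at day 21. The perineurial level was at least 4.25-fold higher at day 7 than in intact nerve, and day 21 was 0.174-fold the day 7 level (0.115 to 0.261). Of the 66 UMIs behind the day 7 value, 1 cell held 22, and thinning brings the log2 ratio of day 21 to day 7 to −1.67. A Lgals3 UMI was found in 1.98% of perineurial cells at day 21 and in 15.8% at day 7, and in 0.822% and 2.49% after thinning. The epineurial level was 8.26-fold the endoneurial level in intact nerve, 1.57-fold at day 7 and 6.71-fold at day 21.

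In both bridge libraries most Lgals3 lay outside the annotated cells. Of all Lgals3 UMIs in barcodes past the depth filters, annotated cells held 64.0% in intact nerve, 15.95% at day 7 and 16.4% at day 21. Myeloid-like cells, where galectin-3 marks macrophages, had 991 CPM at day 21 and 1222 at day 7, and 60.1% and 75.9% of them had a UMI. At day 7, pericyte-like cells had 26.0 CPM (14.6% of cells, median 11445 UMIs) and endothelial-like cells 12.4 CPM (10.4%, 8191 UMIs). The perineurial level of 17.6 CPM lies between these, so the perineurial ratio is not read as a change in expression. Schwann-like cells had 198 CPM at day 21 and 1105 at day 7, and at day 7 they held 4158 of 8212 Lgals3 UMIs. Beside the day 7 values, 7 myeloid markers summed to 32.5 CPM in perineurial cells and 55.4 in endoneurial cells at day 7, against 4.14 and 9.51 in intact nerve, where 5 and 4 of the 7 were at 0. Their part in the result was not tested. Over all annotated cells the ratio of day 7 to intact was 1.09 (0.954 to 1.24). On the log2 scale this is 0.12, against 0.69 when the 3 layers are weighted alike and 1.85 when barcodes without a class are included. The day 21 to intact ratio was −0.76, against −0.18 with the layers weighted alike and 0.98 with those barcodes included, so its direction turned.

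Lgals8 stayed within 2-fold in each comparison. Across the 14 groups of class and library it lay between 27.7 and 46.6 CPM, and its 14 ratios between libraries lay between 0.830 and 1.22. Over all annotated cells day 21 was 0.915-fold the intact level (0.816 to 1.03) and day 7 0.845-fold (0.753 to 0.95).

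Lgals9 was highest in perineurial and endoneurial cells at day 7. Perineurial cells had 33.1 CPM in intact nerve, 107 at day 7 and 45.8 at day 21, which is 3.25-fold at day 7 (2.15 to 5.13) and 1.39-fold at day 21 (0.922 to 2.18). The day 7 log2 ratio was 1.67, and 2.36 after thinning. Of the 403 perineurial UMIs at day 7, 353 lay in 195 cells of the unnamed cluster led by Wif1 (113.7 CPM). In the Sfrp5 cluster 24 perineurial cells of day 7 had 37.2 CPM (18.6 to 66.5, from 11 UMIs). The 85 of intact nerve had 29.3 CPM there (16.8 to 47.6), so the rise of the class was not seen within that cluster. Endoneurial cells had 48.4, 93.1 and 44.8 CPM, 1.92-fold at day 7 (1.60 to 2.33) and 0.926-fold at day 21. Of their 348 UMIs at day 7, 325 lay in 215 cells of the unnamed cluster (97.5 CPM). Epineurial cells had 70.9, 65.4 and 64.2 CPM. Against day 7, day 21 was 0.427-fold in perineurial cells (0.376 to 0.485) and 0.481-fold in endoneurial cells, a log2 ratio of −1.05 that became −0.97 with median-of-ratios scaling. Outside the classes, endothelial-like cells had 116 CPM at day 21 and 151 at day 7, myeloid-like cells 57.9 and 104.7, and Schwann-like cells 14.8 and 2.66.

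Members were counted past 2-fold beside the share of all genes that far apart. A gene counts as past 2-fold here when its mean over both libraries is at least 5 CPM and its ratio, after 0.5 is added to each UMI sum, is 2 or more or 0.5 or less. Lgals7 and Lgals3 pass that filter in several classes only through the library where they are high, so the counts describe the members and support nothing. Over all annotated cells, day 21 against intact had 1 of 5 members past 2-fold (Lgals7), beside 9.66% of all genes. Day 7 against intact had 2 (Lgals1 and Lgals7), beside 16.6%, and day 21 against day 7 had 1 (Lgals7), beside 9.77%. In perineurial cells day 21 against intact had 1 of 4 that passed the filter (Lgals7), beside 17.7%, day 7 against intact had 3 of 5 (Lgals3, Lgals7 and Lgals9), beside 29.4%, and day 21 against day 7 had 3 (Lgals7 higher, Lgals3 and Lgals9 lower), beside 12.2%.

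In endoneurial cells day 21 against intact had 1 member past 2-fold (Lgals7), beside 9.38% of all genes. Day 7 against intact had 3 (Lgals1, Lgals3 and Lgals7), beside 17.9%, and day 21 against day 7 had 3 (Lgals7 higher, Lgals3 and Lgals9 lower), beside 8.67%. In epineurial cells day 21 against intact had 0 of 4, beside 7.33%, day 7 against intact had 1 of 4 (Lgals1), beside 13.8%, and day 21 against day 7 had 1 of 5 (Lgals7), beside 5.86%. MES_DIFF cells had 1 between day 21 and day 7 (Lgals7), beside 14.0%, and dividing cells had 1 (Lgals7), beside 11.6%. The members' median log2 ratio of day 21 to intact in perineurial cells was 0.12, against −0.08 over all genes tested.

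**Figure D5:**
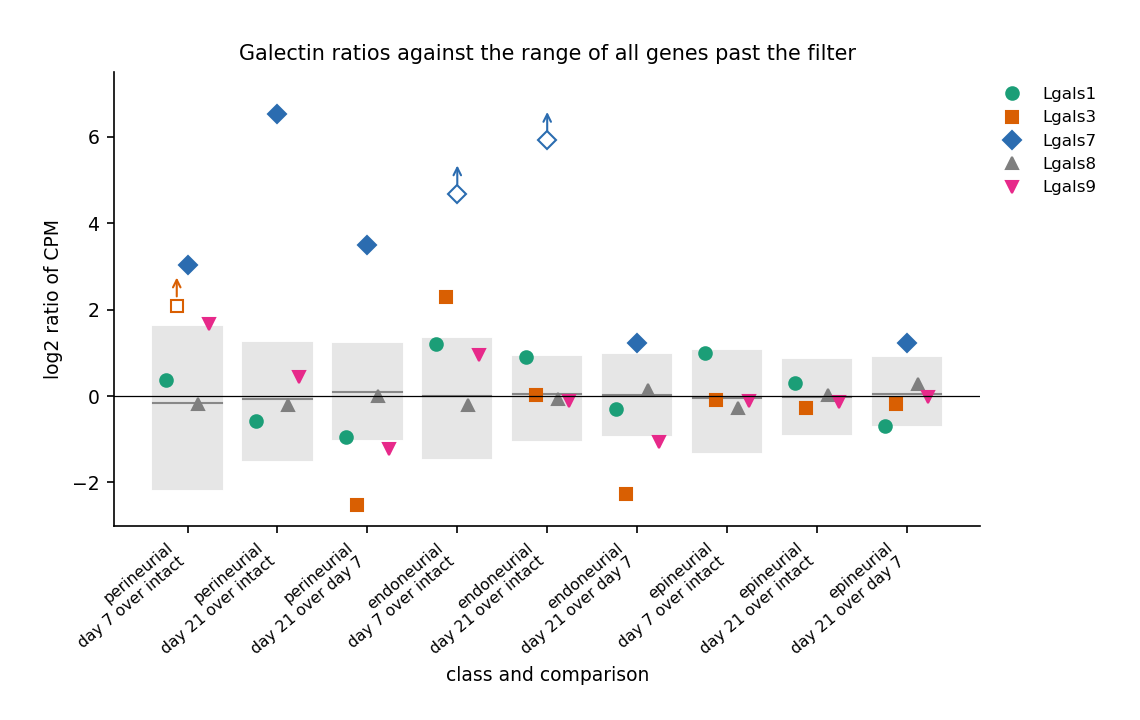
Log2 ratio of CPM for each member in each comparison, over the middle 90% of all genes tested (bars) and their median. Lgals7 lies beyond the bar in every comparison of perineurial and endoneurial cells, and in epineurial cells for day 21 against day 7. Epineurial Lgals7 against intact nerve is below the filter and not drawn. Open markers with arrows are lower bounds for members with 0 UMIs in the denominator.

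The glycoproteins that galectins bind were counted in the same way, and all values here are for perineurial cells alone. Of 22 in the list, 17 passed the filter, and at day 21 against intact 1 was past 2-fold higher and 4 were past 2-fold lower, beside 17.7% of all genes, with a median log2 ratio of 0.15 against −0.08 over all genes. Nrp1, the semaphorin and VEGF co-receptor that galectin-1 binds, was at 267 CPM at day 21 and 88.2 in intact nerve, 3.03-fold (2.37 to 3.94). Pdpn, the membrane mucin podoplanin, was at 76.6 and 222 CPM, Alcam, an adhesion molecule that galectin-8 binds, at 14.6 and 34.5, and Bsg, the matrix protease inducer basigin, at 587 and 1286. The other lower gene was Mertk, an engulfment receptor, named after its value was seen. At day 7 against intact 4 were higher and 2 lower, beside 29.4% of all genes, and at day 21 against day 7 1 was higher and 3 lower, beside 12.2%.

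The enzymes that build or cap N-acetyllactosamine followed, again in perineurial cells alone. Of 15, 12 passed the filter, and at day 21 against intact 3 were past 2-fold higher and 3 lower, beside 17.7% of all genes, with a median log2 ratio of −0.11 against −0.08 over all genes. St6gal1, a sialyltransferase whose added sialic acid blocks galectin-1 binding, was at 91.1 CPM at day 21 and 33.1 in intact nerve, 2.75-fold (1.84 to 4.31). Gcnt2, which branches the chains, was at 17.8 and 67.6 CPM, Mgat3, which bisects N-glycans, at 30.4 and 67.6, and St3gal4, another sialyltransferase, at 58.8 and 104.8. At day 21 against day 7, 2 were higher and 0 lower, beside 12.2% of all genes, with a median of 0.50 against 0.09 over all genes.

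Genes were also ranked by how closely their level followed each member over the 14 groups of class and library, as Pearson's r of log2(CPM + 1) over 5635 genes. The groups share 3 libraries and differ in depth, so these are descriptions. For Lgals7 the closest were Top2b at r = 0.95, Dusp5 at 0.93, Tubb2b and Gnai3 at 0.91 and Bmi1 at 0.90. Dusp5, a phosphatase of ERK, had 17.9, 44.2 and 125 CPM in perineurial cells of intact nerve, day 7 and day 21, and 144 CPM in MES_DIFF cells of day 21 against 34.1 in those of day 7. For Lgals1 they were Bak1 at 0.97, then Pop7, Mrpl20, Ube2m and Nedd8 at 0.95. For Lgals3 they were Psmb8 at 0.94, Dtnbp1 and Cxcl14 at 0.92, Pde8a at 0.91 and Anxa1 at 0.90. For Lgals8 they were Psen2 at 0.91, Lima1 at 0.89, Mpv17 and Gmppa at 0.88 and Cnrip1 at 0.87. For Lgals9 they were Tnfrsf1a at 0.86, Ext2 and Psmb10 at 0.82, Rnh1 at 0.80 and Tmem29 at 0.77. Among the members themselves Lgals3 and Lgals9 had r = 0.66 and Lgals1 and Lgals8 r = −0.71, and no other pair passed 0.45 in size.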

How the data were processed

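The deposited matrices give UMI counts, as whole numbers for each feature in each barcode, written by Cell Ranger 6.1.2 per the file headers. The submitters' processing notes name mm10 and GRCm38 as builds, and Cell Ranger 6.1.2 and 3.0.2 with Seurat 4.0.1 as tools. Cells took their library and class from the deposited metadata: 7234 of 7235 listed cells were found among 14703 barcodes, and 4139 barcodes without a class passed 2000 UMIs, 1000 genes and under 10% mitochondrial UMIs. Depth was 8371421 UMIs over annotated cells in intact nerve, 36169912 at day 7 and 33683464 at day 21. No doublet caller was run, and how doublets were treated upstream is not given in the sources used here.

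UMIs were summed per class and library and scaled to CPM, with exact Poisson intervals. Ratios have exact conditional binomial intervals, shares Clopper-Pearson intervals, and a sum of 0 was set to 3 counts for a bound. No test was made. Clusters came from Leiden clustering (leidenalg 0.10.2, igraph 0.11.9, scikit-learn 1.9.0) of all barcodes past the filters, without galectin genes, and were named from markers. Python 3.11.15, numpy 2.4.6, scipy 1.17.1, pandas 2.3.3, matplotlib 3.10.9, R 4.3.3 and edgeR 4.0.16 (TMM factors alone) were used. The interval code was checked on simulated Poisson counts, which do not hold the uneven spread of UMIs among cells. Positions are from GENCODE M21 with the same identifier version, and that of Lgals1 from RefSeq on GRCm38.p6.

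The members, lists, markers and alternatives were chosen with earlier results of these data known. Named were the members, all galectin-type symbols, the 5 closest genes per member with a mean of at least 20 CPM, and up to 4 genes per list with the largest perineurial ratio of day 21 to intact and at least 20 CPM. Alternatives were equal weight per cell, thinning to 2000 UMIs, median-of-ratios and TMM scaling, a prior count of 2, leaving out the 5% deepest cells, cells in clusters of the same layer, every barcode past the filters, 1 class mixture and a lower filter. Leaving out the perineurial-like clusters was added after the data were seen.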

Additional observations from a re-analysis of the deposited data

Results flagged for a closer look

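Lgals1 moved in opposite directions between classes at day 21 against intact nerve. Its log2 ratio was −0.57 in perineurial cells, 0.90 in endoneurial cells and 0.31 in epineurial cells. The perineurial ratio thus lies −1.47 from the endoneurial one and −0.88 from the epineurial one. With 1 library per group the difference between classes was not tested. In 1 endoneurial-like cluster shared by the libraries Lgals1 was at 1601 CPM at day 21 (78 of 487 cells) and 1626 in intact nerve (653 of 663 cells). Within the perineurial-like cluster led by Slc6a13 it was at 1753 CPM at day 21 (1331 cells) and 1379 in intact nerve (21 cells, 186 UMIs). Within the one led by Sfrp5 it was at 2258 (723 cells) and 3404 (85 cells), which is the direction of the class. The class directions thus did not hold in each cluster.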

How the results depend on the processing

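Of 505 ratios recomputed under the alternatives, 35 moved by over 1.5 times and 32 changed sign, 6 of them with a log2 ratio over 0.5 in size at the start. These 6 are the 3 Lgals7 values given last in this paragraph, Lgals3 over all annotated cells, day 21 to intact (−0.76, and 0.98 over every barcode past the filters), and Lgals3 in MES_DIFF cells, day 21 to day 7 (−0.93, and 0.46 thinned and 0.0045 outside the perineurial-like clusters). TMM scaling, median-of-ratios scaling and leaving out the 5% deepest cells moved 0 of 69 each by that much, and thinning moved 18 of 69. The cause was not tested for any of the values below. The log2 ratio of Lgals1 over all annotated cells, day 7 to intact, was 1.16 and became 1.21 with each cell weighted alike, 1.21 thinned, 0.99 with median-of-ratios scaling, 1.34 with TMM, 1.24 over every barcode past the filters, 0.80 with 1 class mixture and 1.22 without the deepest cells. That of Lgals3 was 0.12 and became 0.72 with each cell weighted alike, 0.52 thinned, 1.85 over every barcode, 0.69 with 1 class mixture and 0.33 without the deepest cells. That of Lgals7, day 21 to intact, was 7.75 and became 6.25 with 1 class mixture. Epineurial Lgals7, day 7 to intact, was 1.03 and became −1.17 thinned and −0.20 in cells of same-layer clusters. Endoneurial Lgals7, day 21 to day 7, was 1.23 and became −0.97 outside the perineurial-like clusters, which was added once the data had been seen.

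The number of genes past 2-fold depended on the filter. With more than 3 counts in either library in place of a mean of 5 CPM, it was 4577 in place of 982 over all annotated cells for day 21 to intact, 6303 in place of 1670 for day 7 to intact and 4768 in place of 976 for day 21 to day 7. In the same order it was 4483, 4542 and 3816 in perineurial cells (1782, 2964 and 1204), 2756, 3945 and 2672 in endoneurial cells (911, 1739 and 833) and 2943, 4290 and 2946 in epineurial cells (715, 1336 and 560). For day 21 to day 7 it was 3684 in MES_DIFF cells (1357) and 2881 in dividing cells (1184).

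No paired analysis was possible because each group is 1 library. Pooled nerves, the bead step on the intact sample alone and the depth of day 7 cells limit every comparison between libraries, and levels from under 10 UMIs, such as intact Lgals7, are known only to within their intervals.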
